A study of Mus musculus with 55 samples.

Results

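The 45 genes described here are the histone and DNA modifying enzymes of mouse primary forebrain neurons, together with one chromatin remodeller subunit, followed over neuronal maturation, stimulation and silencing. The maturation experiment counted 28492 genes and the stimuli experiment 28216. The 45 members were chosen from these by name, with earlier results of these data known. They comprise 11 histone deacetylases (HDACs), 6 sirtuins, 5 histone acetyltransferases, 7 histone demethylases, 10 histone methyltransferases, 2 DNA methyltransferases, 3 TET dioxygenases and the remodeller subunit Baz1a. Each gene was represented by its RefSeq transcript with the most counts.

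Neurons were prepared from the forebrain (cortex and hippocampus) of CD1 mouse embryos of both sexes, labelled between embryonic days 16 and 17.5, with no transgene, and RNA was counted at its 3′ end by CEL-Seq2. In the maturation experiment, cultures at 7 days in vitro (7DIV, 15 samples) and 21 days in vitro (21DIV, 13 samples) were left basal or treated for 15 or 180 min with KCl (55 mM, which depolarises the membrane directly) or with bicuculline (50 µM, a blocker of GABA-A receptors) plus 4-aminopyridine (2.5 mM, a potassium channel blocker). Each of those groups held 3 samples, except the 21DIV bicuculline plus 4-aminopyridine groups, which held 2 each. The sample labels of all 13 samples called 21DIV here, basal and KCl included, give day 23. In the stimuli experiment (27 samples, all called 21DIV), cultures were basal (n = 3), treated with bicuculline alone (Bic) or KCl for 15, 45 or 180 min (n = 2 each), silenced for 48 h with 1 µM of the sodium channel blocker tetrodotoxin (basal TTX, n = 4), or released from that silencing by washing TTX out (TTXw) for 15 (n = 3), 45 (n = 2) or 180 min (n = 3). These are mixed cultures that also hold glia, and nothing in the labels says whether samples of a group came from separate cultures, so p-values measure the spread between these samples, which may be technical.

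Acetyltransferases add acetyl groups to histone tails, HDACs and sirtuins remove them, and methyltransferases and demethylases do the same for methyl groups on particular lysines. DNA methyltransferases place methyl groups on cytosine, and TET enzymes oxidise them. In neurons this machinery is known for the switch from progenitor to postmitotic gene programmes and for opening and closing chromatin at genes that respond to synaptic activity; the class IIa HDACs (Hdac4, Hdac5, Hdac7 and Hdac9) are also known to shuttle between nucleus and cytoplasm with activity.

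The maturation libraries held between 1659717 and 14012872 counts (median 3503390), and the stimuli libraries between 1177504 and 3909485 (median 2384141). The Spearman correlation of a sample with the others of its group was 0.954 to 0.976 in the maturation experiment. In the stimuli experiment it was 0.956 to 0.985. In groups of 2 samples both carry the same value, which cannot tell whether 1 of them stands apart. Levels are given below as CPM, counts divided by library size after scaling by TMM, a factor that corrects for library composition. They are 3′ tag levels and were not compared between genes. A gene was called changed where the joint test over the time points had a Benjamini-Hochberg adjusted p under 0.05 across all genes tested and the change reached 1.5-fold at 1 or more time points. Unless another p is named, an adjusted p below is that of the joint test, and a log2 fold change (± SE) is that of the time point named.

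Promoters are shown for 6 members on which the results below turn: Hdac11, Hdac4, Kdm5b and Tet2, whose windows hold the half-site of the cyclic AMP response element (CRE), the binding motif of the activity-regulated factor CREB, and Dot1l and Tet3, which rose with stimulation and hold none. Each window runs from 250 bases before to 50 after the gene start in RefSeq on GRCm38.p6, read 5′ to 3′ on the strand of the gene, and capitals mark TGACG or its reverse complement. The windows are chr6:91156565-91156864 (plus strand) for Hdac11, chr1:92180292-92180591 (minus strand) for Hdac4, chr1:134559928-134560227 (plus strand) for Kdm5b, chr3:133544341-133544640 (minus strand) for Tet2, chr10:80754953-80755252 (plus strand) for Dot1l and chr6:83441629-83441928 (minus strand) for Tet3.
Hdac11: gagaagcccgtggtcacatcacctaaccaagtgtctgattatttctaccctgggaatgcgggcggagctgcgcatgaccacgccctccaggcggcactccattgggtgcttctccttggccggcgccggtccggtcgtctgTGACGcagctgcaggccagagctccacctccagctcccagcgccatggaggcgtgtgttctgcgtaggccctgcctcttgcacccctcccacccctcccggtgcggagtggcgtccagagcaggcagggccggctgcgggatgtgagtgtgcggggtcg
Hdac4: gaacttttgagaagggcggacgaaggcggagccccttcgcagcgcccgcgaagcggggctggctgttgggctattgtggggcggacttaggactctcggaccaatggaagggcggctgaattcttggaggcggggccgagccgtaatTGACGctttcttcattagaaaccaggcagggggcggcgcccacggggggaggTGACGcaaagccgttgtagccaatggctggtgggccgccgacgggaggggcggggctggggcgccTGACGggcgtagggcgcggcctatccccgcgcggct
Kdm5b: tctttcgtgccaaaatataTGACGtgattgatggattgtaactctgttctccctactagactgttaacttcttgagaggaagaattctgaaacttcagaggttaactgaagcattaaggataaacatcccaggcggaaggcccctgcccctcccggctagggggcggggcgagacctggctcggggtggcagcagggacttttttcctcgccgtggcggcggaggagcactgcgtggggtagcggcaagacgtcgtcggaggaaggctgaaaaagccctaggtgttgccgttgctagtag
Tet2: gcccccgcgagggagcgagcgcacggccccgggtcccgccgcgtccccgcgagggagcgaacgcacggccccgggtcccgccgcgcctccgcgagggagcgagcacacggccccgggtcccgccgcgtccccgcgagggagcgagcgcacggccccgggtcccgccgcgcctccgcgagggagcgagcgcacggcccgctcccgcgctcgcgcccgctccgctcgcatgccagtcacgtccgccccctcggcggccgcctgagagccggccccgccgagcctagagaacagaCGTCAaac
Dot1l: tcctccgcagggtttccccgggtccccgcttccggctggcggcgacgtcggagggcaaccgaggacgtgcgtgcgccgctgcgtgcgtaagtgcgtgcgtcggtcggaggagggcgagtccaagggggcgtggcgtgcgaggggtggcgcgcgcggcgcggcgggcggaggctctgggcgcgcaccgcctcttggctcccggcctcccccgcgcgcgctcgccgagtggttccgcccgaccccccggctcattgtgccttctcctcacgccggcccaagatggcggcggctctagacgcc
Tet3: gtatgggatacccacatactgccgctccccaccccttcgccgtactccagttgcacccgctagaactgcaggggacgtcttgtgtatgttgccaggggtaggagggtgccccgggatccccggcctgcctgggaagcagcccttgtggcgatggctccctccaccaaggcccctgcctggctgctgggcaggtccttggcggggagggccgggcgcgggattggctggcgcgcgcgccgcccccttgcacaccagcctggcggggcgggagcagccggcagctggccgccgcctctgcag

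Searched on both strands, the half-site TGACG occurred in 20.8% of all 32851 windows and in 23.0% of 27025 genes, against 11 of the 39 members found in the table. The matches stood in Hdac4 (3 matches), Hdac5 (2), Hdac11, Kdm5b, Tet2, Sirt1, Sirt3, Kat2a, Kat2b, Kdm2b and Suv39h1. Of 10 activity-induced genes in the same table, such as Fos and Arc, 9 held it. The full CRE, TGACGTCA, always contains the half-site. It occurred in 2.03% of genes, in 0 of the 39 members and in 0 of the 10 activity-induced genes. The AP-1 motif TGANTCA was present in 8.97% of genes, 6 members and 1 activity-induced gene. The EGR motif GCGTGGGCG was present in 0.707% of genes, 1 member and 0 activity-induced genes. A match is a description of letters in these windows and not of a bound site; Baz1a, Kdm6b, Kat6a, Hdac1, Hdac3 and Hdac10 were not analysed here.

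Of the 45 members, 22 were called in at least 1 of 12 comparisons and 15 in at least 1 of the 7 stimulation comparisons. The share of all genes called in at least 1 comparison is not given here, so these counts do not set the members apart. Of all genes tested, 33.1% were called between the stages alone and 21.6% with TTX alone. Baz1a was called in 6 comparisons, Hdac11 in 5 and Kdm5b in 4. The 23 members called in none by the joint test included the broadly used coactivators Ep300 and Crebbp, the maintenance and de novo DNA methyltransferases Dnmt1 and Dnmt3a, and the large H3K4 methyltransferases Kmt2a and Kmt2d. The others were Hdac1, Hdac3, Hdac8, Hdac6, Hdac10, Sirt1, Sirt5, Sirt6, Sirt7, Kat2a, Kdm1a, Kdm3a, Kdm4a, Kdm5c, Ehmt2, Setd2 and Suv39h1. A second set of Kdm5c counts, from another 3′ end, was called under KCl in the stimuli experiment (log2 0.61 ± 0.17 at 15 min, adjusted p = 0.0364).

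The first comparison asked how the basal level of each enzyme differed between young and mature cultures. Of 42 members tested, 11 were lower and 3 higher at 21DIV than at 7DIV, while 14.9% of all 10510 genes tested were lower and 18.2% higher. The median log2 difference was −0.28 over the members and 0.01 over all genes. The 3 called higher were Hdac11 and the sirtuins Sirt2 and Sirt3, and the 11 called lower were HDACs of classes I and IIa, an acetyltransferase, demethylases, methyltransferases and TET enzymes. The members that were not tested, Hdac8, Sirt5 and Kat2b, were below the filter on low counts.

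Among the enzymes that remove acetyl groups, Hdac9 measured 152, 172 and 188 CPM at 7DIV and 85.1, 48.8 and 62.8 CPM at 21DIV. Every 21DIV sample lay far below every 7DIV sample, a fall by 1.36 ± 0.19 on the log2 scale (adjusted p = 8.23e-05). Hdac5, another class IIa enzyme, went from 202.3, 179.7 and 178.2 CPM to 106.2, 108.6 and 100.7 and fell by 0.80 ± 0.13 (adjusted p = 0.000325). Hdac2, a class I enzyme of the nuclear Sin3, NuRD and CoREST complexes, went from 993, 1180 and 1090 CPM to 567, 653 and 705 CPM and fell by 0.73 ± 0.12 (adjusted p = 0.000327). In all these genes the samples of the stages did not overlap. Here and below, lack of overlap describes the samples of genes already selected by the call and is no separate support for it. The share of all genes without overlap is not given here. Hdac11, the only class IV enzyme, went the opposite way, from 16.1, 24.5 and 19.2 CPM to 53.8, 45.4 and 49.5 CPM, a log2 difference of 1.36 ± 0.21 (adjusted p = 0.000167).

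Set among its relatives, Hdac11 was the only HDAC that was called higher at 21DIV. Hdac4 averaged 45.0 CPM at 7DIV and 48.8 at 21DIV, a log2 difference of 0.14 (adjusted p = 0.614). The values of the remaining tested HDACs were below 0 without passing the threshold: −0.86 for Hdac1 (adjusted p = 0.121), −0.27 for Hdac3 (0.509), −0.50 for Hdac7 (0.233), −0.56 for Hdac6, a mainly cytoplasmic tubulin deacetylase (0.0691), and −1.05 for Hdac10 (0.0757). Hdac1 averaged 3.81 CPM and Hdac10 3.72 CPM at 21DIV.

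Of the NAD-dependent sirtuins, Sirt3, the main mitochondrial deacetylase, measured 17.5, 13.5 and 9.48 CPM at 7DIV and 31.7, 38.1 and 38.8 CPM at 21DIV, with no overlap (log2 difference 1.49 ± 0.25, adjusted p = 0.000399). Sirt2, a cytoplasmic tubulin deacetylase that is abundant in oligodendrocytes, rose from 43.6, 38.03 and 41.4 CPM to 68.3, 65.6 and 59.9 CPM (0.68 ± 0.16, adjusted p = 0.00505). The stages did not overlap in either sirtuin. Of the acetyltransferases, Kat6a, a catalytic subunit that acetylates histone H3, fell from 90, 89.6 and 97.8 CPM to 53.8, 59.7 and 53.9 CPM, by 0.70 ± 0.15 (adjusted p = 0.002).

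Among the demethylases, Kdm2b had the largest fall of all members. This H3K36 demethylase, which also recruits a Polycomb complex to CpG islands, measured 42.6, 31.9 and 43.1 CPM at 7DIV and 7.96, 4.83 and 9.40 CPM at 21DIV and fell by 2.37 ± 0.27 (adjusted p = 1.33e-05). Kdm5b, which removes H3K4 methylation, fell from 89.1, 80.4 and 76.4 CPM to 40.5, 46.9 and 43.04 CPM, by 0.89 ± 0.16 (adjusted p = 0.000602). The stages were separate in both genes.

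Of the methyltransferases, Ezh2, the catalytic subunit of Polycomb repressive complex 2 in dividing cells, measured 16.1, 14.7 and 15.7 CPM at 7DIV and 7.78, 6.80 and 3.98 CPM at 21DIV and fell by 1.32 ± 0.33 (adjusted p = 0.00662). Its paralogue Ezh1 was not called. Ehmt1, which with Ehmt2 places H3K9 dimethylation, fell from 112.3, 122.1 and 85.1 CPM to 47.9, 48.8 and 53.4 CPM, by 1.05 ± 0.17 (adjusted p = 0.000272). In both genes all 21DIV samples were below all 7DIV samples. Setdb1, which places H3K9 trimethylation, measured 49.3, 34.96 and 48.2 CPM at 7DIV and 35.98, 23.4 and 25.9 CPM at 21DIV, so that the lowest 7DIV sample fell just under the highest 21DIV one, and its difference of −0.62 ± 0.22 (adjusted p = 0.0376) was lost without 7DIV basal replicate 2 or 4 or 21DIV basal replicate 2 or 3 (log2 differences from −0.58 to −0.52, adjusted p from 0.105 to 0.131).

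Among the TET enzymes, Tet3 fell from 97.6, 71.8 and 66.6 CPM to 39.8, 32.01 and 47.4 CPM, by 0.95 ± 0.20 (adjusted p = 0.00196). Tet2 measured 13.7, 6.75 and 20.9 CPM at 7DIV and 3.11, 6.44 and 4.65 CPM at 21DIV and fell by 1.57 ± 0.42 (adjusted p = 0.0092). The lowest Tet2 sample at 7DIV was close to the highest at 21DIV, and the call was lost without 7DIV basal replicate 4 (log2 difference −1.14, adjusted p = 0.0886). Tet1 and both DNA methyltransferases were not called.

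**Figure D1:**
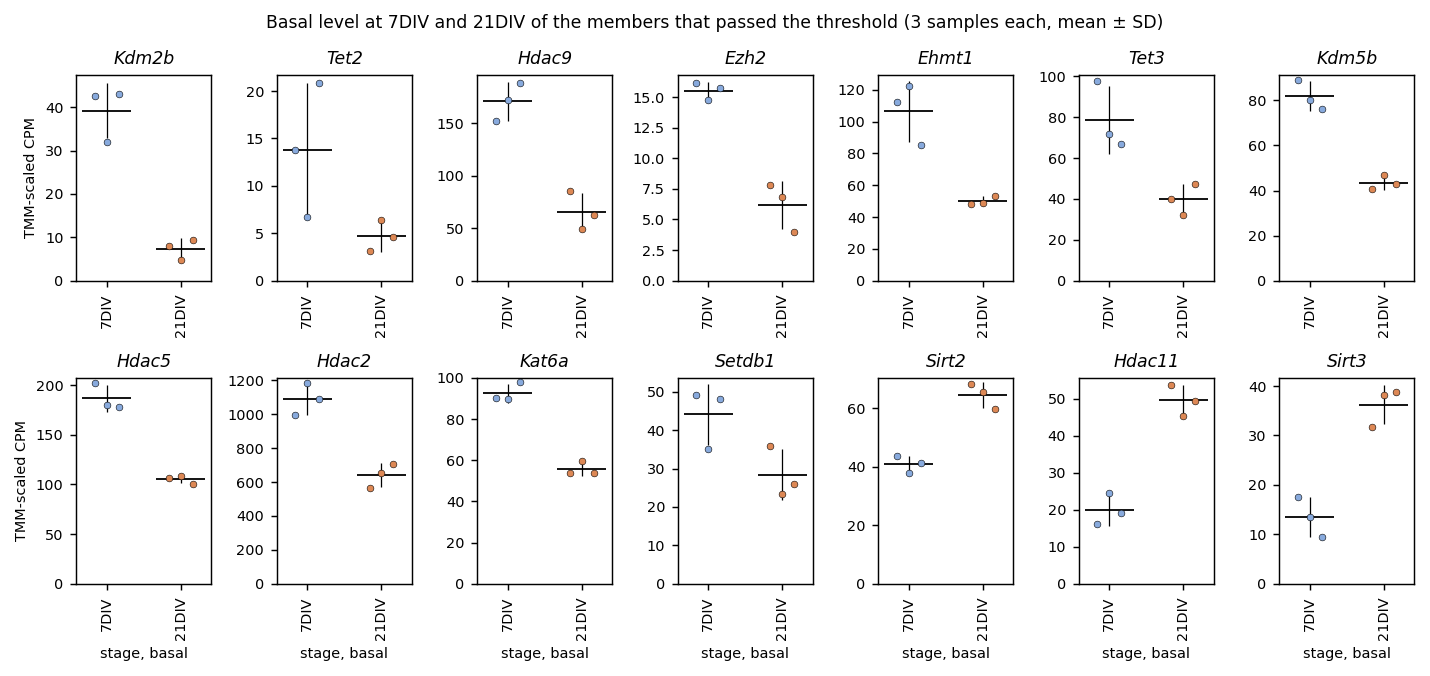
Basal CPM (TMM-scaled, vertical axes starting at 0) of the 14 called members at 7DIV and 21DIV, each point 1 sample of 3, with the mean and SD as bars. In 11 panels the 21DIV samples are lower, with the widest separation in Kdm2b, and in Hdac11, Sirt2 and Sirt3 they are higher.

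Markers of other cell types moved with stage. Of 10 astrocyte markers, 9 rose, and their summed level went from 595 to 867 CPM at 7DIV to 4660 to 5680 CPM at 21DIV. All 9 oligodendrocyte lineage markers tested rose, and the sum over that list of 10 went from 474 to 750 CPM to 2500 to 3290 CPM. Of 12 neuron markers 8 rose and 3 fell, while their sum went from 10300 to 10500 CPM to 8170 to 9410 CPM. Of 9 markers of dividing cells tested, 3 rose, and the sum over that list of 12 went from 128.2 to 134.6 CPM to 163.6 to 255.8 CPM. Microglial markers summed to 12.32 to 22.08 CPM at 7DIV and 12.17 to 16.61 CPM at 21DIV. Endothelial and mural markers summed to 4.907 to 12.32 CPM and 11.76 to 19.85 CPM. Within these low sums, the endothelial marker Cdh5 was at 0 in both basal groups, the microglial markers C1qa and P2ry12 were at 0 at 7DIV and Itgam at 21DIV. In bulk samples, fewer cells of a type and less RNA per cell cannot be told apart, and the part of these cell types in the members' differences was not tested.

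The stimuli experiment asked which enzymes responded to Bic, to KCl and to the washing out of TTX. Under Bic, 3 members rose (Dot1l, Tet3 and Baz1a) and 2 fell (Hdac11 and Ezh1), while 4.08% of all 12027 genes tested rose and 2.54% fell. Under KCl, 4 rose (Kdm5b, Dot1l, Tet3 and Baz1a) and 3 fell (Hdac11, Ezh1 and Tet1), against 3.91% of genes that rose and 2.15% that fell. Bic and KCl share the same basal samples, so their values are given side by side. At each time point the median log2 change over the members lay between −0.11 and 0.07 and that over all genes between −0.02 and −0.01.

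Baz1a, a subunit of the ISWI remodelling complexes ACF and CHRAC, measured 47.6, 33.1 and 61.0 CPM in the basal samples. After 45 min of Bic it measured 123 and 122 CPM, and after 15 min of KCl 103.2 and 127.8 CPM. All stimulated samples were above the basal ones, with log2 fold changes of 1.38 ± 0.18 under Bic (adjusted p = 3.53e-06) and 1.29 ± 0.18 under KCl (adjusted p = 1.2e-05). At 180 min the values were 99.8 and 78.1 CPM under Bic, still 0.91 ± 0.18 above basal (adjusted p = 0.00173 at that time point), and 67.0 and 76.9 CPM under KCl, 0.61 ± 0.20 above (0.138).

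Tet3, which oxidises methylated cytosine, had the largest rise of the called members under KCl in the stimuli experiment. It measured 30.9, 29.4 and 34.1 CPM in basal samples, 78.4 and 91.3 CPM after 15 min of KCl and 65.9 and 72.6 CPM after 45 min of Bic. No stimulated sample overlapped the basal ones, and the log2 fold changes were 1.43 ± 0.18 (adjusted p = 3.75e-06) and 1.14 ± 0.18 (adjusted p = 0.000106). At 180 min KCl gave 46.8 and 39.6 CPM (0.45 ± 0.21, adjusted p = 0.371 at that time point). Bic gave 55.3 and 64.5 CPM at 180 min (0.93 ± 0.18, adjusted p = 0.00154 at that time point).

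Dot1l, the sole H3K79 methyltransferase, measured 53.9, 68.8 and 42.1 CPM in basal samples. It reached 106.9 and 153.6 CPM after 45 min of Bic (log2 fold change 1.25 ± 0.17, adjusted p = 2.5e-05) and 127.17 and 129.04 CPM after 15 min of KCl (1.22 ± 0.17, adjusted p = 4.25e-05). All these stimulated samples lay above the basal ones. At 180 min of KCl the values, 70.2 and 63.1 CPM, were within reach of basal, and the highest basal sample exceeded one of them. In a second set of Dot1l counts, from another 3′ end, the Bic call held (1.26 ± 0.33 at 45 min, adjusted p = 0.0402) and the KCl call did not (1.21 ± 0.33 at 15 min, 0.0653).

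Ezh1, the Polycomb methyltransferase of postmitotic cells, moved the other way. It measured 29.2, 29.4 and 40.2 CPM in basal samples, 13.97 and 10.2 CPM after 45 min of Bic and 14.6 and 14.6 CPM after 15 min of KCl. The stimulated values were all below the lowest basal one, with falls by 1.46 ± 0.26 (adjusted p = 0.000163) and 1.16 ± 0.25 (adjusted p = 0.00725). The KCl call was lost without basal replicate 5 (log2 −0.999, adjusted p = 0.072) or KCl 15 min replicate 2 (−1.13, 0.0667). At 180 min of Bic Ezh1 stood at 25.03 and 21.9 CPM. In the maturation experiment at 21DIV Ezh1 was not called, with 23.9, 20.6 and 20.7 CPM in basal samples. After KCl it measured 13.9, 17.2 and 26.3 CPM there at 15 min and 30.8, 23.8 and 29.3 CPM at 180 min. After bicuculline plus 4-aminopyridine it measured 16.0 and 23.0 CPM at 15 min and 38.9 and 32.6 CPM at 180 min, the latter above all basal samples.

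Hdac11 measured 75.1, 55.1 and 53.1 CPM in basal samples, 40.6 and 35.8 CPM after 45 min of Bic and 31.3 and 37.4 CPM after 15 min of KCl. The stimulated samples were below all basal ones, and Hdac11 fell by 0.69 ± 0.19 (adjusted p = 0.0198) and by 0.83 ± 0.19 (adjusted p = 0.0193). At 180 min it stood at 60.1 and 62.1 CPM under Bic and at 51.7 and 51.1 CPM under KCl. Of the 9 samples of each comparison, removal of 5 ended the Bic call: basal replicate 1 (log2 −0.51, adjusted p = 0.0697), Bic 15 min replicate 2 (−0.65, 0.0646), Bic 45 min replicates 1 (−0.73, 0.0658) and 2 (−0.57, 0.142) and Bic 180 min replicate 3 (−0.65, 0.0599). The KCl call ended without basal replicate 1 (−0.65, 0.15) or KCl 15 min replicate 1 (−0.68, 0.172) or 2 (−0.94, 0.084).

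Kdm5b was the member that differed between the stimuli. It measured 70.5, 55.5 and 61.0 CPM in basal samples, 119 and 103 CPM after 180 min of KCl and 49.8 and 58.6 CPM after 180 min of Bic. The KCl samples were above and the Bic samples within or below the basal range, with log2 fold changes of 0.82 ± 0.19 (adjusted p = 0.0155) and −0.20 ± 0.18 (adjusted p = 0.848). Compared directly, Bic was lower than KCl by 1.03 ± 0.21 on the log2 scale at 180 min (log2 difference −1.03, adjusted p = 0.0226), when 0.94% of all genes differed between the stimuli. That difference was lost without Bic 180 min replicate 2 (−0.89, 0.302) or 3 (−1.12, 0.114) or KCl 180 min replicate 1 (−0.89, 0.278) or 2 (−1.12, 0.0815), and the KCl call itself without KCl 180 min replicate 1 (0.71, 0.217) or 2 (0.94, 0.0572).

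Tet1 was called under KCl with a low point at 15 min, 7.72 and 11.8 CPM against 16.0, 19.4 and 21.6 CPM in basal samples (log2 −0.92 ± 0.32, adjusted p = 0.0216), although that time point alone did not pass (0.0641). At 180 min it measured 24.2 and 30.99 CPM, above the basal samples. The call ended without KCl 15 min replicate 1 (−0.64, 0.212) or 2 (−1.25, 0.0726) or KCl 180 min replicate 2 (−0.89, 0.0753). Kdm3a, an H3K9 demethylase, reached 7.27 and 16.6 CPM after 180 min of KCl from 4.58, 4.09 and 4.55 CPM, a log2 change of 1.48 ± 0.42 that was not called (adjusted p = 0.0869).

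**Figure D2:**
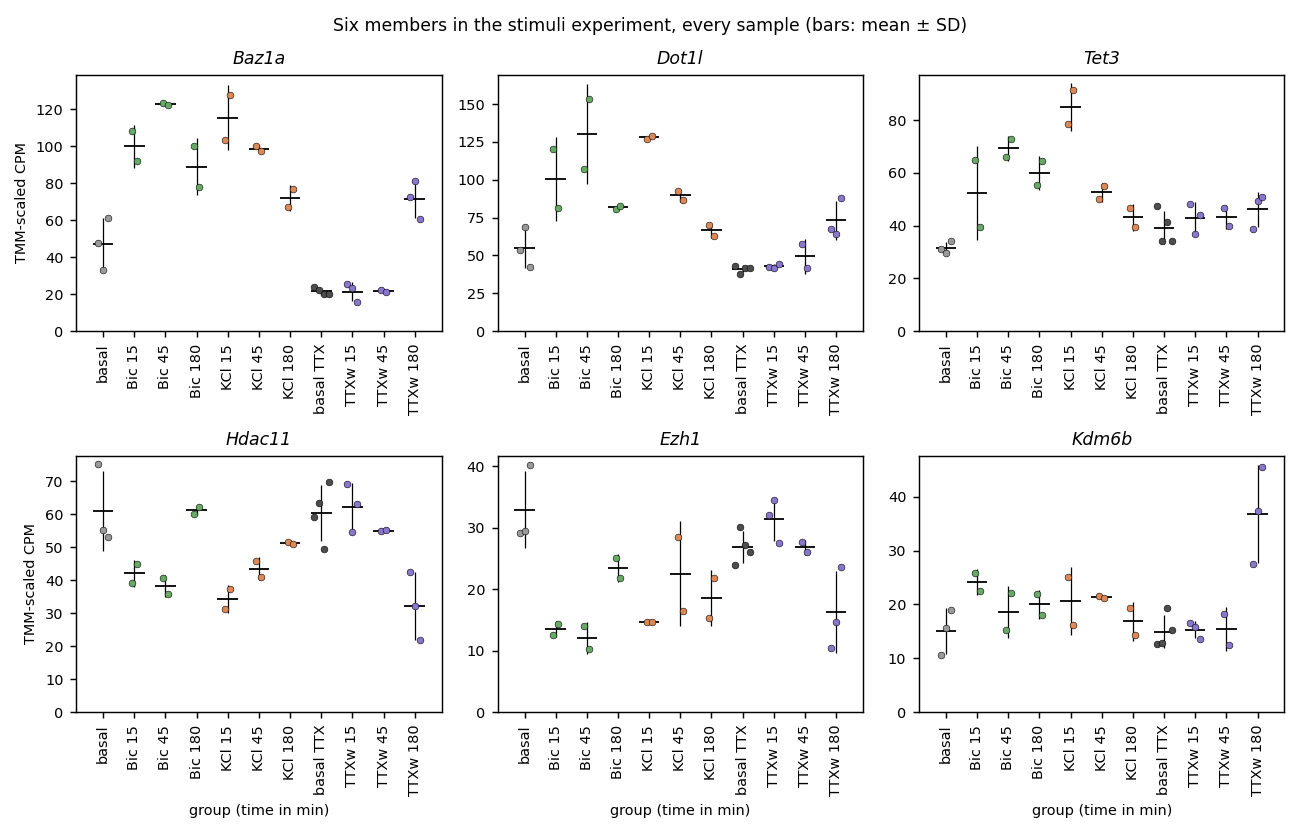
CPM (TMM-scaled) of Baz1a, Dot1l, Tet3, Hdac11, Ezh1 and Kdm6b in every sample of the stimuli experiment, by group and time in min, with the mean and SD as bars. Baz1a, Dot1l and Tet3 lie highest after 15 or 45 min of Bic or KCl, Hdac11 and Ezh1 lie below the basal samples there, and Kdm6b is highest at 180 min of TTXw, with 27.5 to 45.6 CPM.

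After washing out TTX, 5 members rose (Baz1a, Kdm6b, Sirt2, Dot1l and Setdb1) and 2 fell (Hdac11 and Ezh1), each with its largest change at 180 min, while 6.79% of all genes rose and 6.45% fell against basal TTX. The median log2 change at 180 min was 0.19 over the members and 0.015 over all genes. Sirt7, a nuclear sirtuin, also passed at 180 min alone, with 27.9, 34.8, 27.2 and 25.7 CPM in basal TTX and 49.1, 36.4 and 47.1 CPM at 180 min (0.60 ± 0.19, adjusted p = 0.0205 at that time point), but not in the joint test (0.105). Baz1a measured 23.9, 22.1, 20.03 and 20.2 CPM in basal TTX and 72.6, 81.4 and 60.7 CPM at 180 min of TTXw, with no overlap (log2 fold change 1.75 ± 0.19, adjusted p = 6.7e-10). At 15 and 45 min it lay between 15.8 and 25.3 CPM, at the level of basal TTX, whereas under Bic and KCl it was already high at 15 min.

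Kdm6b, which removes the Polycomb mark H3K27 trimethylation, measured 12.6, 12.8, 19.3 and 15.2 CPM in basal TTX and 27.5, 37.4 and 45.6 CPM at 180 min of TTXw (1.29 ± 0.23, adjusted p = 5.33e-05). Kdm6b was not called under Bic or KCl, where its log2 changes were also above 0. They were 0.73 ± 0.27, 0.35 ± 0.26 and 0.43 ± 0.25 at 15, 45 and 180 min of Bic. Under KCl they were 0.46 ± 0.26, 0.52 ± 0.26 and 0.16 ± 0.30. Sirt2 rose from 83.8, 103, 98.7 and 82.8 CPM to 147.9, 182.7 and 154.9 CPM (0.82 ± 0.15, adjusted p = 0.000333). Dot1l rose from 43.2, 37.8, 41.5 and 41.9 CPM to 67.4, 63.9 and 88.1 CPM (0.82 ± 0.17, adjusted p = 0.00185). In these 3 genes the groups were separate. In the second set of Dot1l counts, from another 3′ end, the change at 180 min of TTXw was 0.83 ± 0.36 and was not called (adjusted p = 0.318).

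Hdac11 measured 59.2, 63.3, 49.4 and 69.8 CPM in basal TTX and 42.5, 32.2 and 22.02 CPM at 180 min of TTXw, all below the silenced samples, and fell by 0.91 ± 0.18 (adjusted p = 0.000589). At 15 and 45 min it lay between 54.6 and 69.1 CPM. Ezh1 went from 23.9, 30.2, 27.2 and 26.03 CPM to 10.5, 14.7 and 23.5 CPM and fell by 0.76 ± 0.24 (adjusted p = 0.0187), a call lost without TTXw 180 min replicate 1 (−0.55, 0.159) or 2 (−0.69, 0.124). Setdb1 went from 22.6, 20.9, 14.3 and 15.2 CPM to 36.6, 26.97 and 28.1 CPM (0.75 ± 0.22, adjusted p = 0.0476). All the 180 min samples of Setdb1 were above basal TTX, but 9 of 12 removals ended its call: basal TTX replicate 2, 3 or 4, TTXw 15 min replicate 1 or 2, TTXw 45 min replicate 1 and TTXw 180 min replicate 1, 2 or 3 (log2 0.59 to 0.85, adjusted p from 0.0524 to 0.202).

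Beside these values, the 11 activity-induced genes tested, such as Fos, Arc and Npas4, all rose under Bic and under TTXw, and 9 of them rose under KCl. At 180 min of TTXw the summed neuron markers went from 7470 to 8710 CPM to 4690 to 5660 CPM with 7 of 12 lower, astrocyte markers from 7440 to 8490 CPM to 10900 to 15200 CPM with 5 of 10 higher, and oligodendrocyte lineage markers from 2250 to 2300 CPM to 3250 to 4040 CPM with 5 of 9 tested higher. Under Bic, 5 astrocyte, 4 oligodendrocyte lineage and 4 neuron markers rose, and astrocyte markers summed to 5210 to 5910 CPM at 45 min against 2640 to 3240 CPM in basal samples. Under KCl, 3 astrocyte and 3 neuron markers rose, and of the oligodendrocyte lineage markers 3 rose and 2 fell. The astrocyte sum was 4780 to 4810 CPM at 15 min of KCl. Of 9 markers of dividing cells tested, 3 rose under Bic, 3 under KCl and 5 under TTXw. The sum over that list of 12 was 67.85 to 97.13 CPM in basal samples. It was 173 to 177 CPM at 15 min of KCl and 159 to 196 CPM at 45 min of Bic. With TTX it went from 114.6 to 146.6 CPM in basal TTX to 145.9 to 341.7 CPM at 180 min of TTXw. The part of these lists in the members' changes was not tested.

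Silencing for 48 h with TTX was compared with the basal cultures. Among the members 3 were higher (Hdac4, Hdac7 and Kat2b) and 3 lower (Hdac5, Hdac9 and Baz1a), while 10.8% of all genes were higher and 10.8% lower, and the median log2 difference was 0.015 over the members and 0.001 over all genes. The 4 class IIa HDACs were all called, in opposite directions within the class, and none of the 7 other HDACs was.

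Hdac9 fell the most of all members in any comparison. It measured 77.6, 72.6 and 66.7 CPM in basal samples and 6.65, 1.74, 14.3 and 11.2 CPM in basal TTX, a fall by 3.07 ± 0.23 on the log2 scale (adjusted p = 1.51e-13). It remained between 2.28 and 9.01 CPM at all times of TTXw, so that no sample came back to the basal range within 180 min (log2 change against basal TTX at 180 min −0.56 ± 0.37, adjusted p = 0.321 at that time point). Hdac9 transcripts had separate sets of counts from different 3′ ends, and the second set also fell, by 2.45 ± 0.20 with TTX (adjusted p = 1.21e-12) and by 0.96 ± 0.20 between 7DIV and 21DIV (adjusted p = 0.00184). The transcript with the most Hdac9 counts was not the same in the experiments.

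Hdac5 measured 153, 159 and 137 CPM in basal samples and 83.8, 93.5, 86.6 and 84.6 CPM in basal TTX and fell by 0.78 ± 0.12 (adjusted p = 3.01e-06). At 180 min of TTXw it reached 109.3, 108.4 and 138.9 CPM, above basal TTX by 0.44 ± 0.13 (adjusted p = 0.0386), which is under 1.5-fold. Hdac4 went the other way, from 55.6, 52.8 and 87.2 CPM to 111.1, 129.5, 110.9 and 145.7 CPM (0.95 ± 0.19, adjusted p = 0.000137). Hdac7 rose from 15.2, 16.7 and 15.2 CPM to 23.3, 26.7, 37.9 and 28.9 CPM (0.89 ± 0.21, adjusted p = 0.000913). In these 3 genes basal and basal TTX samples did not overlap, whereas the highest Hdac5 sample at 180 min of TTXw lay within the basal range.

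Kat2b, a GCN5-related acetyltransferase also called PCAF, rose from 5.44, 4.47 and 1.90 CPM to 9.98, 8.71, 12.2 and 13.02 CPM (1.45 ± 0.37, adjusted p = 0.00257). Its paralogue Kat2a measured 94.5, 72.2 and 88.7 CPM and 83.8, 80.1, 85.1 and 88.9 CPM and was not called. Kat6a was higher by 0.58 on the log2 scale (adjusted p = 0.000181), which is under 1.5-fold. Baz1a was lower in basal TTX than in basal samples (log2 difference −1.14 ± 0.18, adjusted p = 5.79e-06), with all silenced samples below all basal ones. Hdac11 was not called, with 59.2, 63.3, 49.4 and 69.8 CPM against 75.1, 55.1 and 53.1 CPM and a log2 difference of −0.01.

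**Figure D3:**
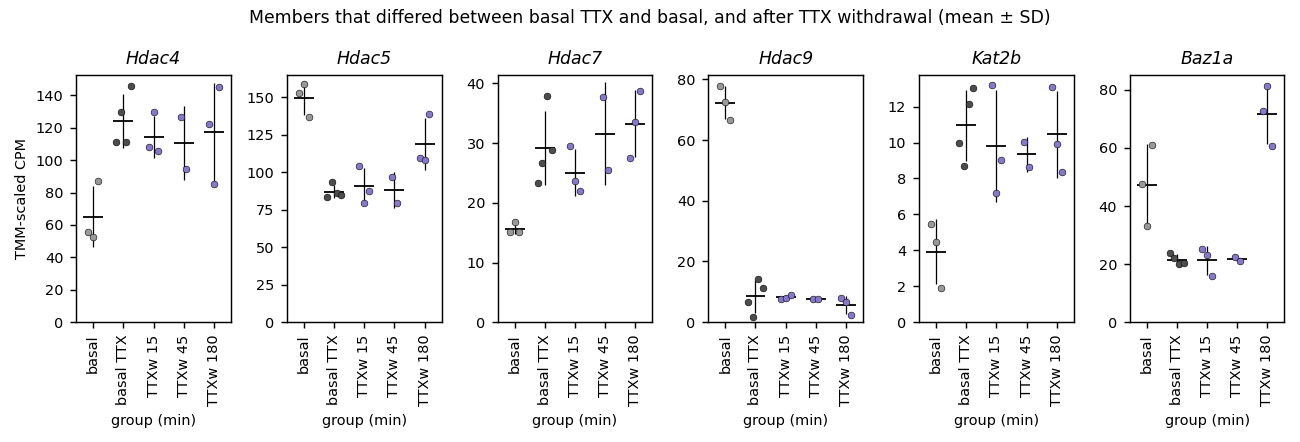
CPM (TMM-scaled, vertical axes from 0) of Hdac4, Hdac5, Hdac7, Hdac9, Kat2b and Baz1a in basal, basal TTX and TTXw samples (15, 45 and 180 min), each point 1 sample, with the mean and SD as bars. Hdac9 drops from 66.7 to 77.6 CPM to at most 14.3 CPM and remains there after TTX is washed out, and Baz1a climbs to 60.7 to 81.4 CPM at 180 min.

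All 10 astrocyte markers and 6 of the 9 oligodendrocyte lineage markers tested were higher in basal TTX than in basal samples, with summed astrocyte levels of 7440 to 8490 CPM against 2640 to 3240 CPM and oligodendrocyte lineage levels of 2250 to 2300 CPM against 815 to 1260 CPM. The 11 activity-induced genes were all lower. Of 9 dividing cell markers tested, 3 were higher, and the list of 12 summed to 114.6 to 146.6 CPM against 67.85 to 97.13 CPM. Summed neuron markers were 7470 to 8710 CPM against 9750 to 10500 CPM. The part of these lists in the class IIa differences was not tested.

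The maturation experiment allowed the response at 7DIV to be set beside that at 21DIV. At 7DIV, KCl gave 1 called member, Baz1a, when 1.28% of all 11746 genes tested rose and 1.01% fell. Baz1a measured 13.3, 11.7 and 17.1 CPM in basal samples, 6.53, 4.22 and 7.13 CPM at 15 min and 18.9, 44.2 and 28.5 CPM at 180 min. The 15 min samples were all below and the 180 min samples all above the basal ones, with log2 changes of −1.31 ± 0.48 and 1.09 ± 0.42. The joint test passed (adjusted p = 0.00574) while neither time point did alone (0.755 and 0.233), and the joint call was lost without KCl 180 min replicate 2 (log2 −1.30 at 15 min, adjusted p = 0.0645).

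Bicuculline plus 4-aminopyridine at 7DIV changed no member by edgeR's quasi-likelihood test or by DESeq2, and 0% of all genes were called. At an unadjusted p under 0.05 there were 1 member and 846 genes. At 7DIV the median log2 change of the members was between 0.09 and 0.14 over both stimuli and times, and that of all genes between −0.004 and 0. Of the 11 activity-induced genes tested, 8 rose with KCl and 0 with bicuculline plus 4-aminopyridine.

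At 21DIV, KCl raised 2 members and lowered none, against 4.13% of genes that rose and 3.52% that fell. Kdm5b measured 40.5, 46.9 and 43.04 CPM in basal samples and 65.6, 73.6 and 71.98 CPM at 180 min, with no overlap (0.70 ± 0.16, adjusted p = 0.00325). Tet2 went from 3.11, 6.44 and 4.65 CPM to 16.7, 13.2 and 12.98 CPM (1.59 ± 0.34, adjusted p = 0.00454). All samples at 180 min were above basal in both genes, and for Tet2 they lay within the basal range at 7DIV, 6.75 to 20.9 CPM. Kdm5b was thus called at 180 min of KCl in both experiments, in samples they do not share. Crebbp, a coactivator with acetyltransferase activity, measured 25.4, 58.5 and 39.3 CPM in basal samples and 18.8, 24.3 and 27.05 CPM at 15 min, groups that overlap. It passed at that time point alone (−0.82 ± 0.23, adjusted p = 0.0242) and not in the joint test (0.051).

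Beside the KCl response at 21DIV, oligodendrocyte lineage markers summed to 2500 to 3290 CPM in basal samples, 1990 to 2230 CPM at 15 min and 1270 to 1740 CPM at 180 min, with 1 of 9 tested higher and 1 lower. The sum over the 12 markers of dividing cells went from 163.6 to 255.8 CPM to 100 to 125.1 CPM at 180 min, with 3 of 9 tested lower. Of the other lists, 2 of 12 neuron markers and 0 of 10 astrocyte markers were lower. Their part in the changes of Kdm5b and Tet2 was not tested.

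Bicuculline plus 4-aminopyridine at 21DIV gave 6 called members, 2 higher (Hdac4 and Hdac11) and 4 lower (Hdac7, Kat6a, Kdm2b and Setdb1), against 6.5% of genes that rose and 5.82% that fell. Kat6a measured 53.8, 59.7 and 53.9 CPM in basal samples and 27.3 and 24.7 CPM at 180 min, with no overlap, and fell by 1.10 ± 0.21 (adjusted p = 0.000557). Kat6a kept its call without any single sample, but lost it with counts thinned to the smallest library (−1.07, adjusted p = 0.104). Under Bic alone at 180 min in the stimuli experiment Kat6a stood at 48.2 and 51.98 CPM against 56.4, 64.8 and 57.2 CPM (log2 −0.24, adjusted p = 0.658 at that time point).

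Hdac11 measured 53.8, 45.4 and 49.5 CPM in 21DIV basal samples and 67.1 and 87.4 CPM after 180 min of bicuculline plus 4-aminopyridine, both above basal (0.64 ± 0.18, adjusted p = 0.037). This direction is opposite to that at 15 and 45 min in the stimuli experiment, where the agents, times and samples differ. The call was lost without basal replicate 2 (0.57, 0.0933) or 3 (0.63, 0.0762) or either 180 min sample, replicate 2 (0.81, 0.0757) or 3 (0.43, 0.456). After KCl at 21DIV in this experiment Hdac11 was not called, with log2 changes of −0.26 ± 0.17 at 15 min and 0.14 ± 0.17 at 180 min. At 7DIV its values lay between 15.3 and 24.9 CPM in all basal and stimulated samples.

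Hdac4 measured 42.6, 44.4 and 59.5 CPM in basal samples, 87.9 and 68.3 CPM at 15 min and 30.2 and 44.2 CPM at 180 min (0.67 ± 0.23 at 15 min, adjusted p = 0.0127, and 0.773 for that time point alone). The call ended without basal replicate 1 (0.57, under 1.5-fold), the 15 min replicate 1 (0.48, 0.136) or the 180 min replicate 2 (0.66, 0.116). Hdac7 fell from 10.9, 7.87 and 9.52 CPM to 4.61 and 4.61 CPM at 180 min, by 1.03 ± 0.33 (adjusted p = 0.0442). Both 180 min samples of Hdac7 were below basal, and the call was lost in 5 of 7 removals, those of basal replicates 1 and 3, 15 min replicate 2 and both 180 min samples (−1.04 to −0.93, 0.0506 to 0.297).

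Kdm2b measured 7.96, 4.83 and 9.40 CPM in basal samples and 4.24 and 4.61 CPM at 180 min, close to the lowest basal sample (−0.77 ± 0.33, adjusted p = 0.0367, and 0.109 for that time point alone). Its call was lost without either 15 min or either 180 min sample (−0.83 to −0.70, 0.0778 to 0.231). Setdb1 went from 35.98, 23.4 and 25.9 CPM to 14.4 and 16.8 CPM, below all basal samples, and fell by 0.87 ± 0.25 (adjusted p = 0.0386). That call was lost in 5 of 7 removals, those of basal replicates 1 and 3, 15 min replicate 1 and both 180 min samples (−0.99 to −0.68, 0.0507 to 0.264).

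Baz1a reached 40.9 and 32.3 CPM at 180 min from 17.1, 8.23 and 19.1 CPM in basal samples (1.29 ± 0.41), and was not called (adjusted p = 0.0755, and 0.0293 for that time point alone). Sirt2 passed the test but stayed under 1.5-fold (0.52 ± 0.17, adjusted p = 0.0479). At 180 min astrocyte markers summed to 1770 to 3410 CPM against 4660 to 5680 CPM in basal samples, with 3 of 10 lower, oligodendrocyte lineage markers were lower in 4 of 9 tested, dividing cell markers in 3 of 9, and all 11 activity-induced genes rose. The median log2 change at 180 min was −0.08 over the members and −0.02 over all genes. The part of these lists in the members' changes was not tested.

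**Figure D4:**
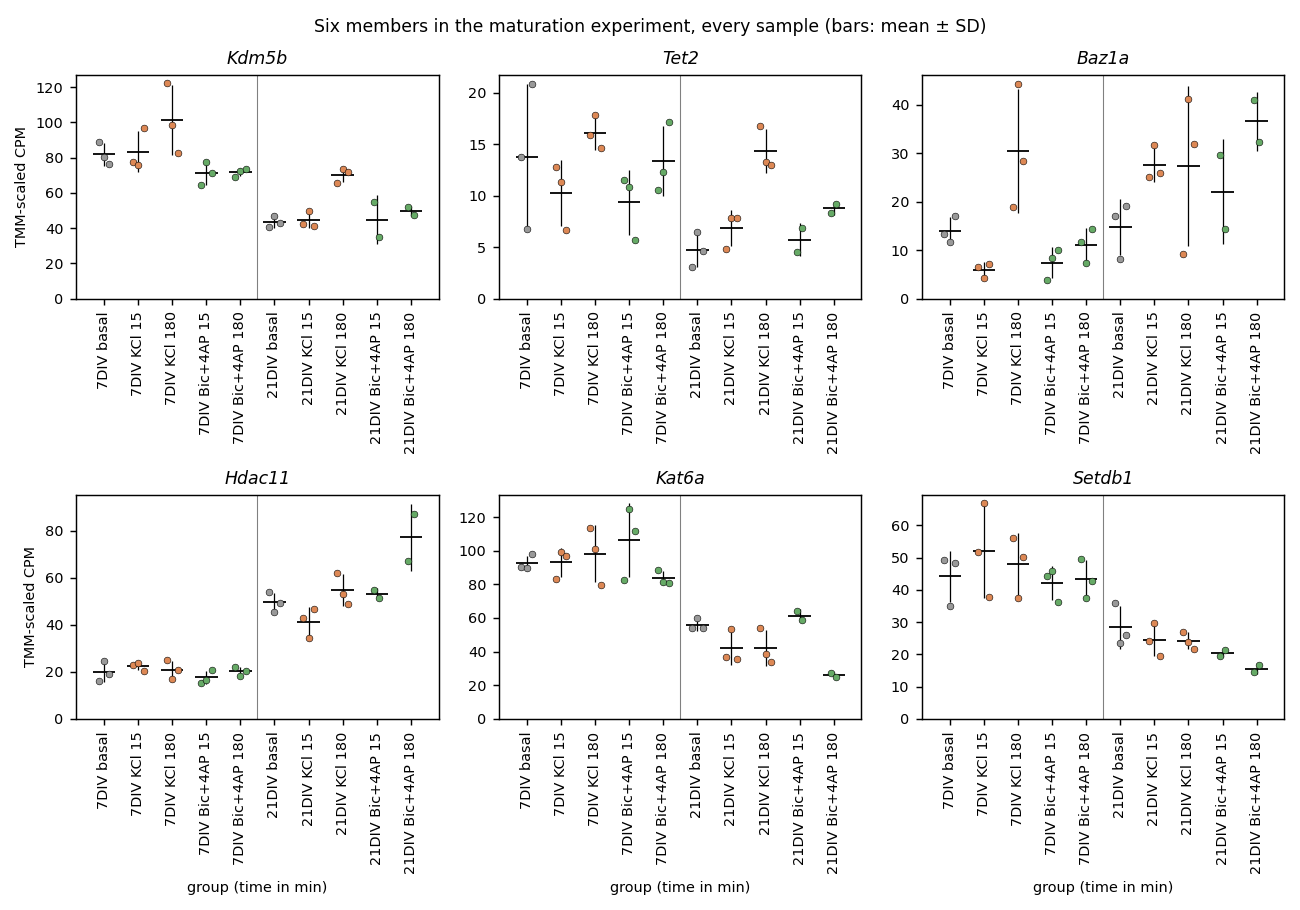
CPM (TMM-scaled, vertical axes from 0) of Kdm5b, Tet2, Baz1a, Hdac11, Kat6a and Setdb1 in every sample of the maturation experiment, 7DIV left and 21DIV right of the line, by stimulus and time in min, with the mean and SD as bars. Kdm5b and Tet2 are higher at 180 min of KCl than basal at 21DIV, and Kat6a is lowest at 180 min of bicuculline plus 4-aminopyridine, at 24.7 and 27.3 CPM.

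Whether a response differed between the stages was tested directly, as the change at 21DIV minus the change at 7DIV. For KCl, 1 member differed, against 2.06% of all genes. Baz1a went from 17.1, 8.23 and 19.1 CPM to 25.1, 31.7 and 25.98 CPM at 15 min at 21DIV, where all stimulated samples were above basal, and down at 7DIV as given above, a log2 difference between the responses of 2.18 ± 0.61. The joint test over 15 and 180 min passed (adjusted p = 0.0374), while the 15 min difference alone did not (0.0559). That call was lost without 11 of its 18 samples in turn: 7DIV basal replicate 2, 3 or 4, 7DIV KCl 15 min replicate 1, 2 or 3, 7DIV KCl 180 min replicate 2 or 3, 21DIV basal replicate 2 and 21DIV KCl 15 min replicate 1 or 2 (log2 1.90 to 2.30, adjusted p from 0.0511 to 0.129). Kdm5b and Tet2, called for KCl at 21DIV and not at 7DIV, did not pass this test. For bicuculline plus 4-aminopyridine, 0 members passed by edgeR's quasi-likelihood test and 2 by DESeq2 (Dnmt3a and Kat6a), against 4.17% of all genes; before adjustment 9 members were under 0.05, and after it the smallest joint p of any member was 0.066, that of Kat6a. At 180 min alone Kat6a differed between the stages by −0.95 ± 0.27 on the log2 scale (adjusted p = 0.0398 at that time point by edgeR).

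Other genes of the machinery were counted in lists of 56 other modifying enzymes and 51 partner subunits and readers. Between 7DIV and 21DIV, 7 other enzymes of 46 tested fell and 4 rose (14.9% and 18.2% of all genes), from Kdm1b, an H3K4 demethylase (log2 −1.44), to Kdm7a, an H3K9 and H3K27 demethylase (1.08), and 10 partners of 45 fell and 3 rose, from Jarid2, a cofactor of Polycomb repressive complex 2 (−1.10), to Mta3, a NuRD subunit (1.03). With TTX, 5 other enzymes of 49 fell and 2 rose (10.8% of all genes in each direction), among them the brain arginine methyltransferase Prmt8 (−1.67) and the H3K4 methyltransferase Kmt2c (0.78), and 2 partners of 46 fell and 3 rose, with Meaf6 the largest fall (−0.72). Prmt8 was also the largest fall among these enzymes under TTXw (−0.62), where 1 of 49 fell and 3 rose (6.45% and 6.79% of all genes), led by Setd5 (1.46 at 45 min), and 2 partners of 46 fell and 1 rose, Mta3 (−0.92) and Trrap (0.85) being the extremes.

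The stimuli experiment had 49 other enzymes and 46 partners tested and the maturation responses 50 and 45, and the shares of all genes called are those given above for each comparison. Under Bic, 1 other enzyme rose, the H3K36 methyltransferase Ash1l (0.89), 1 fell, Smyd3 (−0.91), and 1 partner rose, Jarid2 (0.61). Under KCl, 1 other enzyme fell, Smyd3 (−1.06), and 3 partners rose, Jarid2 the most (0.81). The direct comparison of Bic with KCl called Smyd3 alone (−0.87). At 7DIV KCl gave 2 rises and 1 fall among the other enzymes, with Suv39h2 (1.46) and Riox1 (−1.80) at the ends, and 1 fall among partners, Tada2b (−1.12), while bicuculline plus 4-aminopyridine gave none.

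At 21DIV KCl gave 3 falls among the other enzymes, Kat6b the largest (−0.97), and among partners 2 falls, led by Brpf3 (−1.91), and 1 rise, Sin3b (0.61). Bicuculline plus 4-aminopyridine at 21DIV gave 3 falls and 2 rises among the other enzymes, with Kmt5b (−1.42) and the histone acetyltransferase Hat1 (1.00) at the ends, and 5 falls and 2 rises among partners, with Brpf3 (−1.87) and the DNA glycosylase Mbd4 (1.37). Brpf3 is a scaffold of acetyltransferase complexes. For the stage differences, the called genes of these lists were Mbd3 (−0.74) for KCl, and for bicuculline plus 4-aminopyridine 1 other enzyme, Smyd2 (−0.63), and 2 partners, Tada2b the larger (−1.55).

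Some counts have limits of their own. For 13 members a second set of counts held at least 20% of the counts, and for the other 32 none did. Within 1000 bases of the 3′ end, 8 members overlap a gene on the opposite strand in GENCODE vM21, among them Hdac11, Hdac7, Kdm2b, Setdb1 and Sirt3, and 0 on the same strand. Whether strand was used in the counting is not given in the sources used here, so in these genes reads of the partner cannot be told apart from their own if it was not.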

How the data were processed

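Libraries were CEL-Seq2 3′ libraries; per the labels and methods, the authors aligned reads with STAR to mm10 and deposited raw, unnormalized counts per RefSeq transcript from ESAT. How reads of one molecule were collapsed is not given in the sources used here. Counts of transcripts without a gene symbol, 18.518% and 19.233% of the total, were left out, and 32851 promoter windows were taken from RefSeq. Members and gene lists were chosen with earlier results of these data known; all 12 comparisons were fixed per experiment from the labels, and Bic and KCl, or a stage's stimuli, share basal samples.

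Genes over 5 CPM in at least 2 samples entered edgeR 4.0.16 (R 4.3.3) with TMM factors, 1 coefficient per group, and the quasi-likelihood test with Benjamini-Hochberg adjustment; this left 10510 genes for the basal stage comparison (42 members), 11746 for the maturation (44) and 12027 for the stimuli experiment (45). DESeq2 1.42.0 was an alternative. Values in full are given for members called in any comparison, at the time of their largest change, and for all HDACs; of other lists, the largest rise and fall among the called, of which 1 value is not reported here. The script was tested on simulated counts. Replicate libraries differed beyond sampling noise, the chi-square divided by its degrees of freedom being 2.17 to 20.2 in 48 pairs, and none was counted as a duplicate. One basal sample of the stimuli experiment carries replicate number 5 in its title and 2 in its description; the title was used.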

Additional observations from a re-analysis of the deposited data

Results flagged for a closer look

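Tet1 measured 37.9 CPM in basal TTX replicate 1, while the other 3 samples of that group lay between 19.2 and 20.7 CPM; its gap to the next sample was larger than Dixon's 95% limit for 4 samples. This was 1 of 45 groups of 4 samples examined, and chance alone gives about 1 in 20.

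The KCl response of Baz1a differed between the stages by the interaction test over 15 and 180 min jointly (adjusted p = 0.0374 by edgeR's quasi-likelihood test), with a log2 difference of 2.18 at 15 min (21DIV minus 7DIV) that did not pass alone (adjusted p = 0.0559). The change at 15 min was upward in 3 of 3 samples at 21DIV and downward in 3 of 3 at 7DIV, and the call was lost in 11 of 18 removals of a single sample.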

How the results depend on the processing

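Of 50 named gene results, 49 kept their direction under every alternative run and 26 also kept their call. These 26 included Hdac11, Hdac2, Hdac5, Hdac9, Kdm2b and Sirt3 between stages and Hdac4, Hdac5, Hdac9 and Baz1a with TTX. They also included Baz1a and Tet3 under Bic and KCl in the stimuli experiment. The reversed one was Kdm2b under bicuculline plus 4-aminopyridine at 21DIV, 0.32 (log2) with counts thinned to the smallest library (adjusted p = 0.479). The same calls were kept in 50 of 50 with the likelihood ratio test and with RLE factors, 49 with DESeq2, 46 without a filter, 41 with summed transcripts and 33 when thinned. The second set of 3′ counts, chosen after seeing the data, kept 9 of 11 and lost Dot1l under KCl and TTXw. The numbers of members called changed as follows, and the cause was not tested. KCl at 7DIV gave 2 with the likelihood ratio test, DESeq2 or no filter (adding Kdm3a). The stage difference for bicuculline plus 4-aminopyridine gave 2 with each of these and 1 with only the groups compared. Bic against KCl gave 2 with the likelihood ratio test, no filter or only the groups compared and 0 with summed transcripts. KCl at 21DIV gave 4 without a filter and 1 thinned. The stage difference for KCl gave 0 summed, thinned or with only the groups compared, KCl in the stimuli experiment 4 summed or thinned, and bicuculline plus 4-aminopyridine at 21DIV 1 thinned and 2 with only the groups compared.

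Samples with the same replicate number showed little common deviation. Their deviations correlated with a median of 0 at 7DIV (−0.035 to 0.029) and −0.019 at 21DIV (−0.247 to 0.114). In the stimuli experiment the median was 0.007 (−0.094 to 0.103). Whether samples were paired is not given in the labels, and groups this small cannot settle it. With a replicate block, bicuculline plus 4-aminopyridine at 21DIV gave 3, the stage difference for KCl 0 and Bic against KCl 0, and 41 of 50 named calls were kept.

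Leaving out 1 sample at a time, the members called ranged from 12 to 15 between stages, 6 to 9 with TTX, 4 to 5 under Bic, 4 to 7 under KCl and 6 to 10 under TTXw in the stimuli experiment, 0 to 2 for Bic against KCl, 0 to 1 for KCl at 7DIV, 2 to 5 for KCl and 1 to 5 for bicuculline plus 4-aminopyridine at 21DIV, and 0 to 2 and 0 to 1 for their stage differences. Shallow libraries limit the low genes: thinned, Ezh2 (−0.47, adjusted p = 0.534) and Tet2 (−1.63, 0.149) lost their stage calls and Hdac7 (0.60, 0.235) and Kat2b (1.02, 0.284) those with TTX.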
